A study of Mus musculus with 10 samples.

Results

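The Egr and Nr4a genes encode transcription factors whose transcripts rise soon after a neuron is stimulated, and the Nab genes encode proteins that bind Egr factors and repress them. The 9 genes described here were given by name: Egr1, Egr2, Egr3, Egr4, Nab1, Nab2, Nr4a1, Nr4a2 and Nr4a3. All 9 were found among the 47632 gene rows of the deposited table, and all 9 were among the 15905 that were tested, those averaging 1 FPKM or more over the 10 libraries. FPKM is a fragment count corrected for transcript length and library size, so levels can be set side by side between genes. RNA came from the striatum, a deep forebrain region made up largely of GABA-releasing spiny projection neurons, of mice harvested at 11 weeks of age. The R6/2 group held 5 libraries from hemizygous R6/2 mice, which carry a transgene with the first part of the human huntingtin gene and an expanded CAG repeat and serve as a model of Huntington's disease. The control group held 5 libraries from isogenic wild-type mice. Whether 1 library stands for 1 mouse is not stated in the labels. P-values therefore rest on the spread among libraries, part of which may be technical.

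Egr proteins bind GC-rich DNA through zinc fingers, and they link a synaptic stimulus to later changes in gene expression. Their genes are switched on within minutes by kinases of the MAP kinase cascade acting on serum response factor and its partners, and by the cyclic AMP-activated factor CREB. Egr factors in turn induce Nab2, whose protein limits them in a feedback loop, while Nab1 is expressed more steadily. The Nr4a proteins are orphan nuclear receptors that act without a known hormone. Their genes are also early response genes, driven mainly through CREB and its coactivators. Nr4a2, also called Nurr1, is best known for its role in midbrain dopamine neurons, and Nr4a1, also called Nur77, is induced in spiny neurons when dopamine signalling changes.

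The start-site regions of the genes are shown first, because the best known inducers of these genes bind DNA next to the start site. RefSeq windows on GRCm38 were matched for 7 of the 9 genes, all but Egr1 and Egr3. The 250 bases before each start site were searched on both strands for 5 motifs. They were the CArG box bound by serum response factor, the core CGTCA of the cyclic AMP response element bound by CREB, the full element TGACGTCA, which contains that core, the Egr site GCGNGGGCG, and the Nr4a site AAAGGTCA. Stretches that lie in no GENCODE exon are printed 5′ to 3′ on the strand of the gene, with CArG boxes and CGTCA cores, or their reverse complement, in capitals. For Egr2 only the site of 30 bases around the CArG box is given, at chr10:67537793-67537822 on the plus strand. The Nr4a1 stretch is chr15:101266596-101266845 on the plus strand, the Nr4a2 stretch chr2:57124004-57124253 on the minus strand, the Nr4a3 stretch chr4:48045055-48045152 on the plus strand and the Egr4 stretch chr6:85513590-85513839 on the minus strand.
Egr2: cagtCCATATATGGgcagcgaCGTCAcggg
Egr4: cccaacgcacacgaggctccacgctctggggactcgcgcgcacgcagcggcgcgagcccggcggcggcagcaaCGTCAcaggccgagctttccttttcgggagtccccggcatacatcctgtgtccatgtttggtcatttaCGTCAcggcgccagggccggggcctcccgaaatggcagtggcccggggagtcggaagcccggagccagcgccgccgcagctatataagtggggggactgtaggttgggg
Nr4a1: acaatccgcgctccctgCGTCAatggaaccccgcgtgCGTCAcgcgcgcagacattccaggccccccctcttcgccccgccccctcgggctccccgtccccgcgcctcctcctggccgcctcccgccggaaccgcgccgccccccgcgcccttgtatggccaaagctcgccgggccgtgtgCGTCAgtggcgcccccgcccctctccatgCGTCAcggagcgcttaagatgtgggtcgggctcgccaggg
Nr4a2: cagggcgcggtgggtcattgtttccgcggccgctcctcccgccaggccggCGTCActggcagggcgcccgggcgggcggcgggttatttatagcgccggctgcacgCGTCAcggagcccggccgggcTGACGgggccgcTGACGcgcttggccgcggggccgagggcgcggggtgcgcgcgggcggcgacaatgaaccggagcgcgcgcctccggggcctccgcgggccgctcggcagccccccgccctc
Nr4a3: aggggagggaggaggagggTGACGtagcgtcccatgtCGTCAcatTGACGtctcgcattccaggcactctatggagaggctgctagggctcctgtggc

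All 3 Nr4a windows held 4 CGTCA cores, a number reached by 0.137% of the 32851 RefSeq windows of the same length. In Nr4a3 the core nearest the start lies in the 152 bases of its window that are GENCODE exon, so the printed stretch shows the other 3. At least 1 core was found in 17.8% of all windows and at least 2 in 3.9%. Egr4 held 2 cores, and so did the Egr2 window before the start at position 67537869. That Egr2 window also held a CArG box, centred at -67.5 bases from the start, a motif found in 1.47% of all windows. RefSeq lists 5 start sites for Egr2, and the window before the start at 67537566 also held a CArG box and no CGTCA core. Nab1 had 1 core and 3 Egr sites, where at least 3 Egr sites were found in 0.14% of windows. All of these Nab1 matches lie in the 231 bases of its window that are GENCODE exon. Nr4a1 and Nr4a2 had 1 Egr site each, against at least 1 in 4.7% of windows. Nab2 had none of the 5 motifs, and none of the 7 genes had the full cyclic AMP response element or the Nr4a site, which 1.55% and 1.34% of windows held. The G and C content was 63.6% to 80.0% in the windows of Nr4a1, Nr4a2, Nr4a3 and Egr4, against a median of 52.4% over all windows. These are matches of letters, with no measurement of binding. Whether they bear on the changes in R6/2 given below was not tested. There Nr4a1 and Nr4a3, with 4 cores each, and Egr2 and Egr4, with the 2 given above, fell. Nr4a2, with 4 cores, did not pass (log2 change -0.12), nor did Nab1, with 1. Nab2, with none of the motifs, fell (-0.90). The Nab2 window, 127666704 to 127666953, lies inside its GENCODE gene, which begins at 127668568 on the minus strand.

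**Figure D1:**
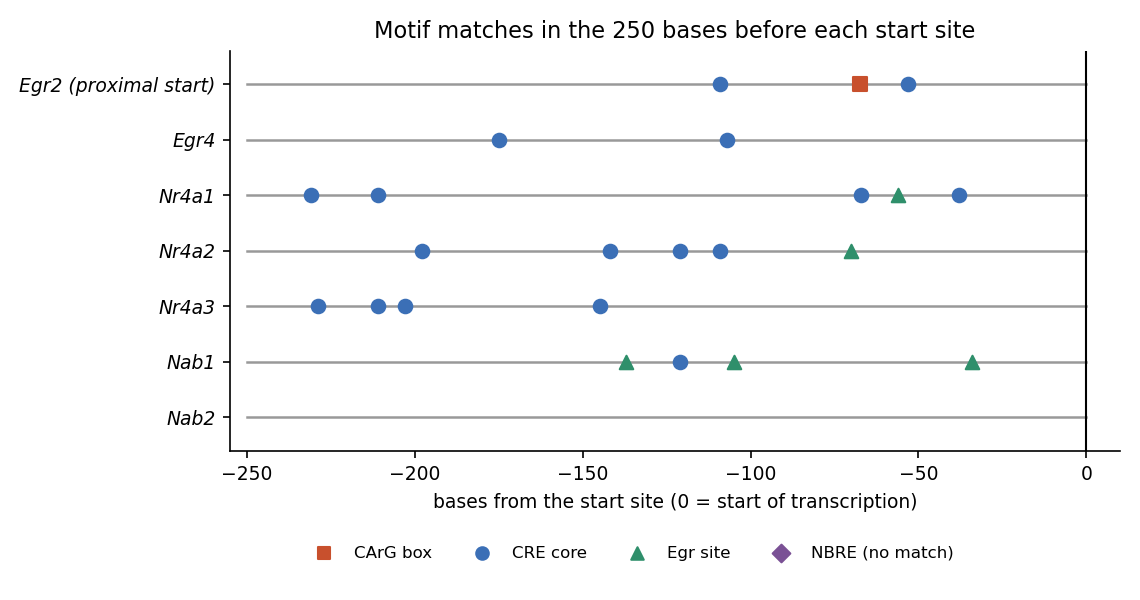
Motif matches in the 250 bases before a RefSeq start site for the 7 genes with a window. The x axis is the distance in bases from the start site, each row is 1 gene and each symbol is the centre of a match on either strand. The rows of Nr4a1, Nr4a2 and Nr4a3 each carry 4 cores of the cyclic AMP response element, and the row of Egr2, drawn for the start at 67537869, carries the CArG box.

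Transcripts of 7 of the 9 genes fell in R6/2 and 0 rose. All 4 Egr genes, Nab2, Nr4a1 and Nr4a3 were lower, to between 10.6% and 52.1% of the control mean, while Nab1 and Nr4a2 did not pass the test. In limma with a pseudocount of 1 FPKM all 9 log2 changes were below 0, although those of Nab1 and Nr4a2 changed sign in other settings. Of all genes tested, 9.11% were lower in R6/2 and 5.00% were higher at the same threshold, a Benjamini-Hochberg adjusted p of 0.05 from limma on log2(FPKM + 1). With protein-coding genes rescaled to 1 total, 1133 of all genes were lower and 1520 higher, against 1449 and 795 as reported. The 5 R6/2 values lay below all 5 control values for the same 7 genes, against 8.58% of all genes tested. They lay above all controls for 0 of the 9, against 4.50%. The median log2 change of the 9 genes was -1.13, and that of all genes tested was 0.001. All log2 changes below are R6/2 minus control. The added 1 FPKM makes them too small for genes with low values. In bulk tissue, fewer cells of a type and less RNA per cell cannot be told apart.

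**Figure D2:**
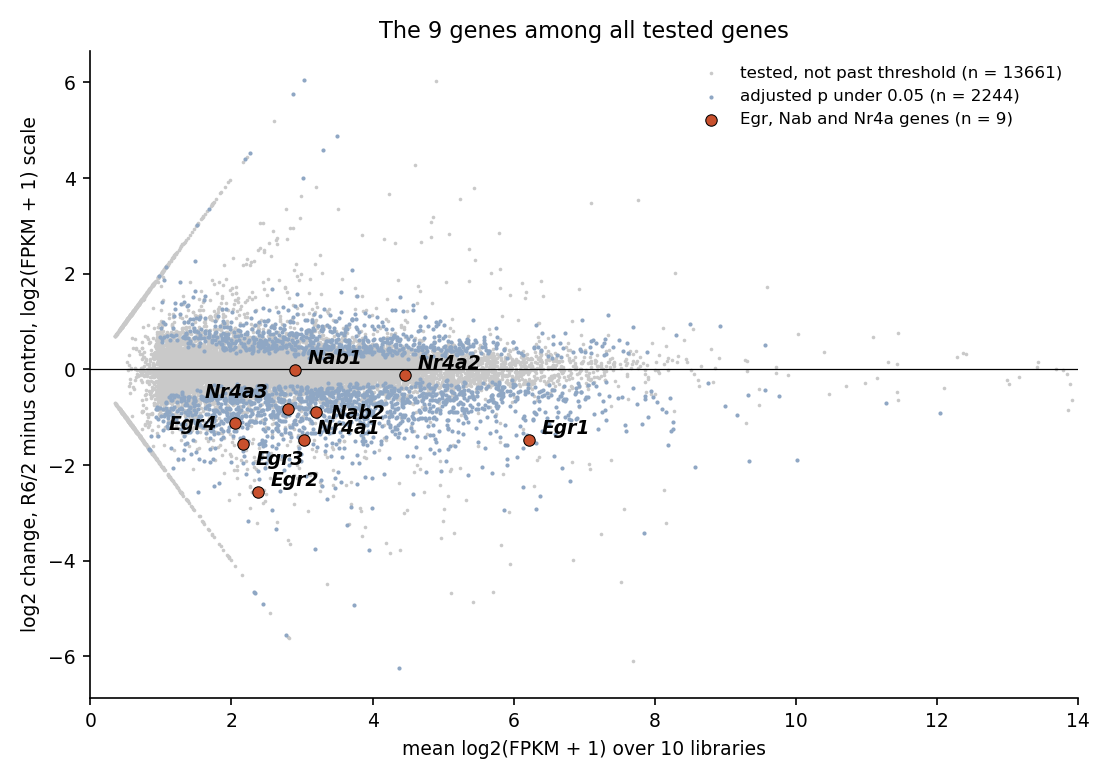
Log2 change, R6/2 minus control, against mean log2(FPKM + 1) over the 10 libraries for the 15905 genes tested, with the 9 genes as large points. Egr1 stands at the highest level of the 9 and Egr2 at the lowest change, -2.56, while Nab1 and Nr4a2 lie near 0.

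The libraries differed in markers of several cell types. The summed level of 12 spiny neuron markers was 1760 to 2232 FPKM in controls and 229.7 to 379 FPKM in R6/2, and all 12 fell (median log2 change -2.47). The summed level of 5 markers of cortical excitatory neurons was 21.5 to 47.3 FPKM in controls and 48.4 to 84.4 FPKM in R6/2, without overlap. Emx1 was at most 0.444 FPKM in any library. Cortical neurons express early response genes too. Markers of the peripheral Schwann cell, where Egr2 drives myelination, summed to at most 0.485 FPKM in any library, with Pmp2 listed at 0 in all 10. Among glia, 5 of 8 myelin markers, 2 of 8 astrocyte markers and 1 of 7 tested microglia markers fell, where 9.11% of all genes tested did, so the microglia count is near the background. The summed level of 6 endothelial markers was 23.7 to 30.2 FPKM in controls against 21.2 to 28.4 FPKM in R6/2, with overlap.

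Egr1 was the most abundant of the 9 genes in both groups. It lies on GRCm38 chromosome 18 from 34859823 to 34864984 (ENSMUSG00000038418.7). Controls 1 to 5 had 139.5, 111, 123, 132 and 114 FPKM, and R6/2 libraries 1 to 5 had 46.4, 37.1, 54.6, 46.3 and 35.5 FPKM. The highest R6/2 library, R6/2 3, was still below every control. The mean fell from 124 ± 12.3 to 44.0 ± 7.79 FPKM (SD, n = 5), a log2 change of -1.48 with an SE of 0.125 (limma adjusted p = 7.4e-05).

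Egr2, which is also the myelination factor of Schwann cells, showed the steepest fall of the 9. It lies on chromosome 10 from 67535475 to 67542188 (ENSMUSG00000037868.15). Control values were 12.2, 11.1, 13.5, 12.8 and 8.94 FPKM, and R6/2 values were 0.965, 0.542, 1.52, 2.51 and 0.644 FPKM. In 3 of the 5 R6/2 libraries it was under 1 FPKM, and R6/2 4 was the highest. The R6/2 mean was 10.6% of the control mean, with a log2 change of -2.56 and an SE of 0.223 (limma adjusted p = 8.08e-05). Only 107 of the 15905 genes tested had a log2 change this low or lower. The size of the change depended on the pseudocount, with -3.33 for 0.1 FPKM and -1.42 for 5 FPKM.

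Egr3, a regulator of muscle spindle development and of memory-related gene expression, varied more between controls. It lies on chromosome 14 from 70077203 to 70082614 (ENSMUSG00000033730.3). It was at 7.52, 6.81, 10.2, 5.80 and 4.35 FPKM in controls and at 1.96, 1.12, 2.61, 1.38 and 1.198 FPKM in R6/2. Control 5 was the lowest control, and R6/2 3 the highest R6/2 library. The groups did not overlap, and the log2 change was -1.57 with an SE of 0.216 (limma adjusted p = 0.00114). It was -0.83 with a pseudocount of 5 FPKM.

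Egr4, a brain-enriched gene of the family, was the least abundant of the 9 in controls. It lies on chromosome 6 from 85511121 to 85513589 (ENSMUSG00000071341.4). Control values of 5.77, 4.65, 5.04, 5.199 and 5.17 FPKM stood against 1.74, 1.23, 2.05, 2.25 and 1.90 FPKM in R6/2. Both groups were tight, with SDs of 0.403 and 0.388 FPKM. The log2 change was -1.13 with an SE of 0.114 (limma adjusted p = 0.000199), and -0.57 with a pseudocount of 5 FPKM.

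The Egr genes did not all fall in the same proportion. Egr1 and Egr4 were each at 35.5% of the control mean in R6/2, Egr3 at 23.9% and Egr2 at 10.6%. Within each library, the log2 value of 1 gene was subtracted from that of another, and the groups were compared with an exact permutation test over all splits into 5 and 5, two-sided. The smallest p this test can give is 0.00794, or 0.0159 when 1 library is left out. P-values were adjusted over the 10 pairs formed within the Egr, Nr4a and Nab families. Egr2 fell further than Egr4 by 1.43 on the log2 scale (exact permutation test, adjusted p = 0.0198), and also with pseudocounts of 0.1 (adjusted p = 0.0265) and 5 FPKM (0.0159). Egr2 fell further than Egr1 by 1.08 (exact permutation test, adjusted p = 0.0198) and by 1.82 with a pseudocount of 0.1 FPKM, but the difference was 0.019 with 5 FPKM. Egr2 also fell further than Egr3 by 1.00 (exact permutation test, adjusted p = 0.0317). That call was lost with a pseudocount of 0.1 FPKM (0.0635) and in 6 of 10 comparisons without 1 library, namely control 1, 2 or 4 (each 0.0635), R6/2 5 (0.0635) and R6/2 1 or 2 (each 0.0529). Over those 10 comparisons the difference of Egr2 minus Egr3 ran from -1.21 to -0.92, while the smallest possible p was higher. For Egr1 against Egr4 the difference of -0.35 passed with a pseudocount of 1 FPKM, where it was -0.04 with 0.1 FPKM, so no unequal change of this pair is read from it. Egr3 and Egr4 differed by -0.44 (exact permutation test, adjusted p = 0.106). As a share of the summed FPKM of the 4 Egr genes, Egr2 went from 7.91 ± 0.829% to 2.43 ± 1.38% and Egr1 from 83.9 ± 1.88% to 90.4 ± 1.63% (SD, n = 5). Neither share overlapped between the groups.

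**Figure D3:**
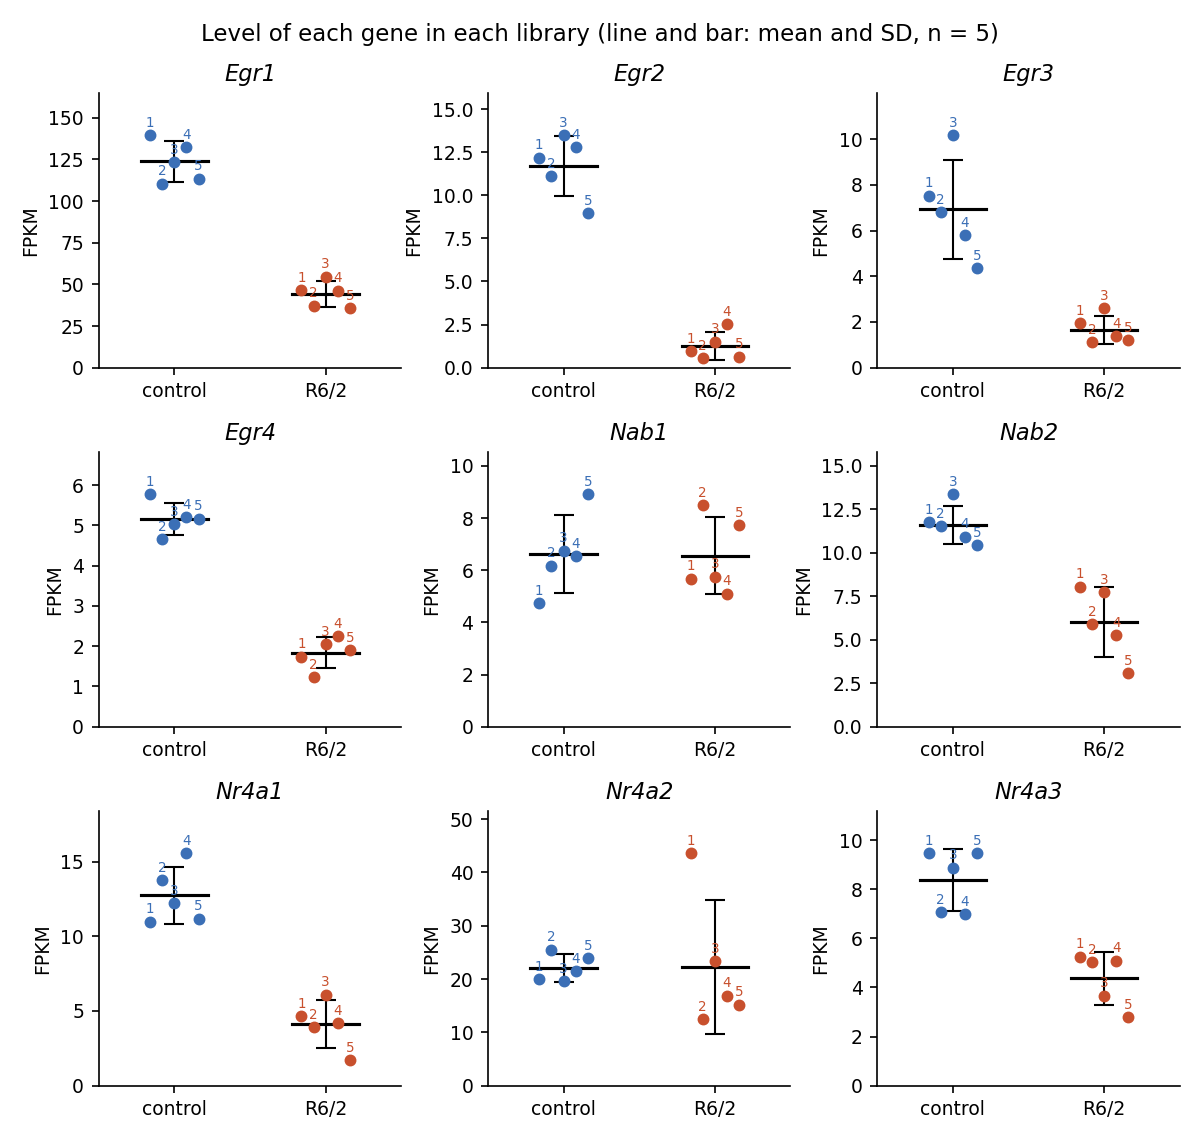
FPKM of each of the 9 genes in each library, with the replicate number beside each point and the mean and SD of each group (n = 5) in black. In 7 panels every R6/2 point lies below every control point. The groups overlap for Nab1, and for Nr4a2, where R6/2 1 stands at 43.6 FPKM above all other libraries.

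The 2 corepressor genes separated. Nab2, itself induced by Egr factors, was at 11.8, 11.5, 13.4, 10.9 and 10.5 FPKM in controls and at 8.05, 5.90, 7.72, 5.26 and 3.07 FPKM in R6/2. The highest R6/2 library lay below the lowest control, and R6/2 5 was the lowest. The log2 change was -0.90 with an SE of 0.201 (limma adjusted p = 0.0157). With the mean log2 level of the 5 cortical markers as a covariate in the model, the change was -0.96 and did not pass (limma adjusted p = 0.143). Emx1, which was too low to be tested itself, is among the 5. The summed level of these markers did not overlap between the groups, so this covariate cannot be fully told apart from group. Nab2 lies on chromosome 10 from 127660918 to 127668568 (ENSMUSG00000025402.12). Its exons overlap those of Stat6, Nemp1 and Gm16229 on the other strand, and no source used here gives the strand setting of the counting, so reads of these genes may not be told apart.

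Nab1 (ENSMUSG00000002881.14, chromosome 1, 52457294 to 52500679) was at 4.73, 6.18, 6.75, 6.54 and 8.91 FPKM in controls and at 5.67, 8.51, 5.76, 5.10 and 7.73 FPKM in R6/2. The lowest and the highest library were both controls. The log2 change was -0.01 with an SE of 0.169 (limma adjusted p = 0.978). Across the settings tried it ran from -0.20 to 0.09 and never passed. Nab1 minus Nab2 was higher in R6/2 by 0.89 on the log2 scale (exact permutation test, adjusted p = 0.0397, and 0.0595 with a pseudocount of 0.1 FPKM). Without 1 library that call held only where control 5 or R6/2 3 was left out, and adjusted p was 0.0529 to 0.0794 without any other. The difference ran from 0.65 to 1.03 over these comparisons, where the smallest possible p was higher. Nab2 held 63.9 ± 6.38% of the summed FPKM of both genes in controls and 47.2 ± 12.6% in R6/2 (SD, n = 5).

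Of the Nr4a genes, Nr4a1 fell most. It lies on chromosome 15 from 101254269 to 101274795 (ENSMUSG00000023034.6). Controls had 11.0, 13.7, 12.2, 15.6 and 11.2 FPKM, and R6/2 libraries had 4.67, 3.90, 6.09, 4.20 and 1.69 FPKM. R6/2 3 was the highest and R6/2 5 the lowest of the R6/2 libraries, and none reached the lowest control. The mean fell from 12.7 ± 1.92 to 4.11 ± 1.59 FPKM (SD, n = 5), a log2 change of -1.48 with an SE of 0.232 (limma adjusted p = 0.00233). It was -0.97 with a pseudocount of 5 FPKM. When controls 1 and 3 and R6/2 2 and 3 were left out, it was -1.74 and missed the threshold with 3 libraries a group (limma adjusted p = 0.0537).

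Nr4a3, also called NOR-1, fell less. It lies on chromosome 4 from 48045153 to 48086447 (ENSMUSG00000028341.9). It was at 9.46, 7.05, 8.88, 6.99 and 9.46 FPKM in controls and at 5.25, 5.02, 3.67, 5.09 and 2.80 FPKM in R6/2. The R6/2 mean was 52.1% of the control mean, and the groups did not overlap. The log2 change was -0.82 with an SE of 0.16 (limma adjusted p = 0.00808). With the cortical covariate it was -0.65 (limma adjusted p = 0.197), and with a pseudocount of 5 FPKM it was -0.52.

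Nr4a2, the second most abundant of the 9 genes, had nearly equal group means and an unequal spread. It lies on chromosome 2 from 57106830 to 57124003 (ENSMUSG00000026826.13). Controls lay between 19.5 and 25.5 FPKM, with 19.9, 25.5, 19.5, 21.4 and 23.9 FPKM. R6/2 libraries had 43.6, 12.5, 23.3, 16.9 and 15.2 FPKM. R6/2 1 was above all controls, R6/2 3 within their range, and R6/2 2, 4 and 5 below all of them. The means were 22.1 ± 2.58 and 22.3 ± 12.5 FPKM (SD, n = 5), and the log2 change was -0.12 with an SE of 0.285 (limma adjusted p = 0.837). Without R6/2 1 it was -0.39 (limma adjusted p = 0.189), so the value rests on that library and the call does not. No other gene of the 9 had R6/2 1 above the controls, although that library was also the highest of its group for Nab2 and Nr4a3.

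Within libraries, Nr4a1 lost ground to Nr4a2 by 1.37 on the log2 scale (exact permutation test, adjusted p = 0.0198), and also with pseudocounts of 0.1 (0.0265) and 5 FPKM (0.0159). Nr4a1 against Nr4a3 gave -0.66 (exact permutation test, adjusted p = 0.0567) and passed with 5 FPKM (0.0454). Nr4a2 against Nr4a3 gave 0.70 and did not pass (exact permutation test, adjusted p = 0.0992). Nr4a2 held 48.1% to 55.1% of the summed Nr4a FPKM in controls and 58.3% to 81.5% in R6/2. Nr4a1 made up 25.1% to 35.4% in controls against 8.57% to 18.4% in R6/2, so for both shares the groups did not overlap.

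The order of levels differed between the groups. In controls Egr1 came first, then Nr4a2, Nr4a1, Egr2, Nab2, Nr4a3, Egr3, Nab1 and Egr4. Egr1, Nr4a2 and Nr4a1 had ranges that did not touch, and Nab2 was above Nr4a3 in 5 of 5 libraries. Nr4a1, Egr2 and Nab2 overlapped with their neighbours, as did Nr4a3, Egr3, Nab1 and Egr4. In R6/2 the order was Egr1, Nr4a2, Nab1, Nab2, Nr4a3, Nr4a1, Egr4, Egr3 and Egr2. There the ranges of Egr1 and Nr4a2 overlapped, although Egr1 was higher in 5 of 5 libraries, and only Nr4a2 and Nab1 had separate ranges. Egr2 stood behind Nr4a1 in controls and last of the 9 in R6/2, and Nab1 moved up to the place behind Nr4a2.

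The R6/2 libraries differed among themselves. R6/2 5 was the lowest of its group for Egr1, Nab2, Nr4a1 and Nr4a3, and R6/2 2 for Egr2, Egr3, Egr4 and Nr4a2. R6/2 3 was the highest for Egr1, Egr3 and Nr4a1. It also had the highest summed cortical markers, 84.4 FPKM, and the lowest summed spiny neuron markers, 229.7 FPKM. R6/2 2, with the next highest cortical sum of 68.8 FPKM, had 37.1 FPKM of Egr1, 1.12 of Egr3 and 3.90 of Nr4a1. Whether the cortical signal bears on these levels was not tested. With the cortical covariate, 5 of the 9 genes were lower, namely all 4 Egr genes and Nr4a1. The log2 changes were -1.51 for Egr1 (limma adjusted p = 0.004), -2.42 for Egr2 (0.00635) and -1.39 for Egr3 (0.0479). For Egr4 the change was -1.06 (0.0119) and for Nr4a1 -1.83 (0.0152). The cortical markers did not overlap between the groups, so the covariate cannot be fully told apart from group. A call kept or lost with it is not read as bearing on the cortical signal. Leaving out the controls with the least and the R6/2 libraries with the most cortical signal left 3 against 3, with cortical sums of 41.6 to 47.3 and 48.4 to 50.9 FPKM. There the 4 Egr genes passed, with log2 changes of -1.46, -2.40, -1.40 and -1.02 for Egr1 to Egr4. That comparison was added after the data were seen. Whether the fall of the 7 genes that were lower is separate from that of the spiny neuron markers was not tested.

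**Figure D4:**
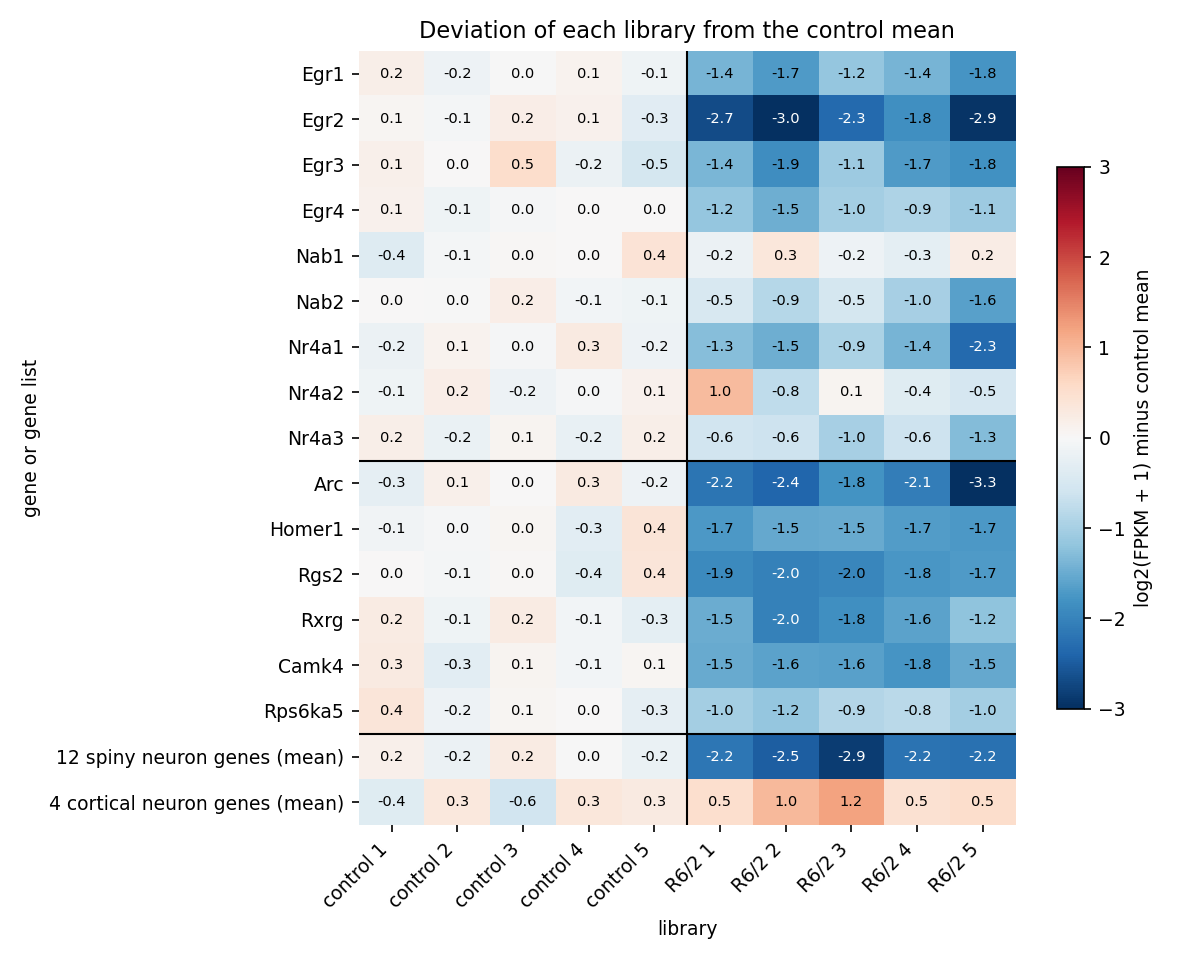
Log2(FPKM + 1) minus the control mean in each of the 10 libraries, for the 9 genes, for 6 other genes named in the text and for the means of 12 spiny neuron and 4 tested cortical neuron markers. Blue is below and red above the control mean. The R6/2 columns are blue throughout for the 7 genes that fell and for the spiny neuron mean, while Nr4a2 is red in R6/2 1 and the cortical mean is red in all 5.

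Genes that act upstream of the 9 or pair with their products included 28 kinases, transcription factors, coactivators and retinoid X receptors, all tested. Of these, 10 fell and 2 rose (median log2 change -0.26), where 9.11% of all genes tested fell and 5.00% rose. The number that rose is near that background and is not read as a result about the list. The smallest p-values were those of Camk4, a calcium-dependent kinase that activates CREB, and Rxrg, a partner receptor for Nr4a1 and Nr4a2. Camk4 had 42.3 ± 6.32 FPKM in controls against 13.0 ± 0.957 FPKM in R6/2 (SD, n = 5), which is a log2 change of -1.62 (limma adjusted p = 2.16e-05). An antisense gene, 2310026I22Rik, overlaps it. Rxrg was at 12.04, 9.07, 11.9, 9.43 and 8.004 FPKM in controls and at 2.92, 1.67, 2.06, 2.62 and 3.74 FPKM in R6/2 (log2 change -1.64, limma adjusted p = 0.000229), and the change was -0.99 with a pseudocount of 5 FPKM. Its relatives Rxra and Rxrb did not pass, with log2 changes of -0.16 (limma adjusted p = 0.424) and -0.52 (0.0924). Rps6ka5, which encodes the CREB kinase MSK1, had a change of -0.98 (limma adjusted p = 0.00087), and of -0.52 with a pseudocount of 5 FPKM. Its exons overlap Gm49703 on the same strand, so their reads may not be told apart.

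Further members of the same route fell by less, and others did not pass. Srf, the gene of serum response factor, changed by -0.64 (limma adjusted p = 0.00338), its coactivator gene Mrtfb by -0.40 (0.00804), the ternary complex factor gene Elk3 by -0.53 (0.0144), the kinase gene Map2k1 by -0.41 (0.00594), the CREB coactivator gene Crtc1 by -0.60 (0.00298) and Mef2a by -0.27 (0.0279). Creb1 itself was at 0.16 and did not pass (limma adjusted p = 0.449). Crtc2 (0.13, limma adjusted p = 0.719), Crtc3 (0.18, 0.412) and Mef2c (0.45, 0.16) were also above 0 without passing. Mrtfa, Elk1, Elk4, Mef2d, Mapk3 and Map2k2 had log2 changes below 0 that did not pass. The 2 genes counted as higher were the histone acetyltransferase genes Ep300, by 0.39 (limma adjusted p = 0.0245), and Crebbp, by 0.44 (0.0491). The number that rose was 0 with the cortical covariate and without control 2, control 3 or R6/2 5, it was 1 without any other single library except R6/2 3, and 3 with quantile normalization or rescaling. With the cortical covariate 3 of the 28 fell. Lost calls did not mean a lost direction, since over all settings the log2 change ran from -0.67 to -0.49 for Crtc1 and from -0.43 to -0.30 for Map2k1.

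Other early response genes were also lower. Of 30 such genes 20 had enough signal to be tested, and 13 of these fell while 0 rose (limma). Of all genes tested, 9.11% fell and 5.00% rose. The log2 change was below 0 for all 20, with a median of -0.87 against 0.001 over all genes tested. The 10 left out had a mean under 1 FPKM, and their directions were mixed. Bdnf, Maff, Atf3, Ppp1r15a, Klf2 and Klf4 had a higher mean in R6/2 than in controls, and Ier2, Btg2, Gadd45b and Csrnp1 a lower one. Among the 20, Fos, Nptx2 and Sik1 were under 1 FPKM on average in R6/2, so they passed the filter through their control level. The shared direction therefore holds only for genes past the filter. Arc, which encodes a cytoskeletal protein of active synapses, was at 20.9, 28.3, 25.7, 31.0 and 22.8 FPKM in controls and at 4.76, 4.07, 6.66, 5.29 and 1.67 FPKM in R6/2 (log2 change -2.35, SE 0.256, limma adjusted p = 0.000297). R6/2 5 was the lowest library for Arc, as for Egr1, Nr4a1, Nr4a3 and Nab2. The G protein regulator gene Rgs2 was at 26.5% of the control mean (log2 change -1.87, limma adjusted p = 2.53e-05) and the scaffold gene Homer1 at 31.1% (-1.63, 3.36e-05). Values are per gene, so transcript forms of Homer1 cannot be told apart. Npas4, which encodes a transcription factor specific to neuronal activity, had 8.06 ± 2.16 FPKM in controls against 1.42 ± 0.883 FPKM in R6/2 (SD, n = 5), a log2 change of -1.95 (limma adjusted p = 0.00119). The AP-1 gene Fosl2 (-1.40, 0.00117), the synaptic pentraxin gene Nptx2 (-1.13, 0.000729), the MAP kinase phosphatase gene Dusp1 (-1.03, 0.00454), the clock gene Per1 (-1.02, 0.00066) and the kinase gene Plk2 (-0.67, 0.000928) were lower as well, with limma adjusted p beside each change. The 7 tested genes that did not pass included Fos, with 1.47 ± 0.661 FPKM against 0.838 ± 0.56 FPKM (SD, n = 5, limma adjusted p = 0.361), Fosb (log2 change -0.46, limma adjusted p = 0.0947), Junb (-0.48, 0.352) and Jun (-0.19, 0.451). These 4 AP-1 genes ran from 1.47 FPKM (Fos) to 4.18 FPKM (Jun) on average in controls. Nptx2, which passed, was at 3.21 FPKM in controls and 0.919 FPKM in R6/2. Whether a low level bears on these calls was not tested. Leaving out the extremes of cortical signal gave 7 that fell.

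Genes reported elsewhere as Egr targets went in different directions. Of 8 such genes 7 were tested, of which 5 fell and 1 rose, where 9.11% of all genes tested fell and 5.00% rose. The 1 that rose is not read as a result about the list. Beside Arc and Nab2, which also stand above, Gabra4, a GABA receptor subunit gene linked to Egr3, the postsynaptic scaffold gene Dlg4 and the Cdk5 activator gene Cdk5r1 fell. Their log2 changes were -0.76 (limma adjusted p = 0.000686), -0.72 (0.00202) and -0.44 (0.00995). Syn1, a synaptic vesicle gene, rose. Its level was 119.95 ± 22.9 FPKM in controls against 173 ± 18.1 FPKM in R6/2 (SD, n = 5), which gives 0.54 (limma adjusted p = 0.0223). Its groups overlapped, and it did not pass without control 3 (limma adjusted p = 0.057), without R6/2 5 (0.0501) or with the cortical covariate (0.394). Syn2 stood at 0.12 (limma adjusted p = 0.554), and -0.05 with the cortical covariate. Ngfr, at 0.563 ± 0.304 and 0.237 ± 0.105 FPKM, was not tested. With the cortical covariate 2 of the 7 fell, and Dlg4 (-0.57, limma adjusted p = 0.0817) and Cdk5r1 (-0.34, 0.219) kept their direction and did not pass. Gabra4, Syn1 and Syn2 share exonic sequence with an antisense gene.

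The tested protein-coding genes whose library-by-library pattern was most like that of a member were found among 11400 candidates by the mean absolute difference of log2(FPKM + 1) values, each taken relative to its control mean, over the 10 libraries. For Egr1 they were Cacna2d3, a calcium channel subunit gene (mean absolute difference 0.086), Grasp (0.123) and the choline transporter gene Slc5a7 (0.124). For Egr2 they were Syndig1l (0.239), the phosphodiesterase gene Pde10a (0.247) and the adenosine receptor gene Adora2a (0.252). For Nr4a1 they were Lynx1 (0.225), the phosphatase gene Dusp14 (0.226) and Lpcat4 (0.233). All 9 fell, with log2 changes from -1.19 for Lpcat4 to -2.92 for Pde10a (limma adjusted p = 3.34e-05 and 5.12e-06). The measure compares size as well as pattern, so genes with a fall of similar depth are favoured.

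**Figure D5:**
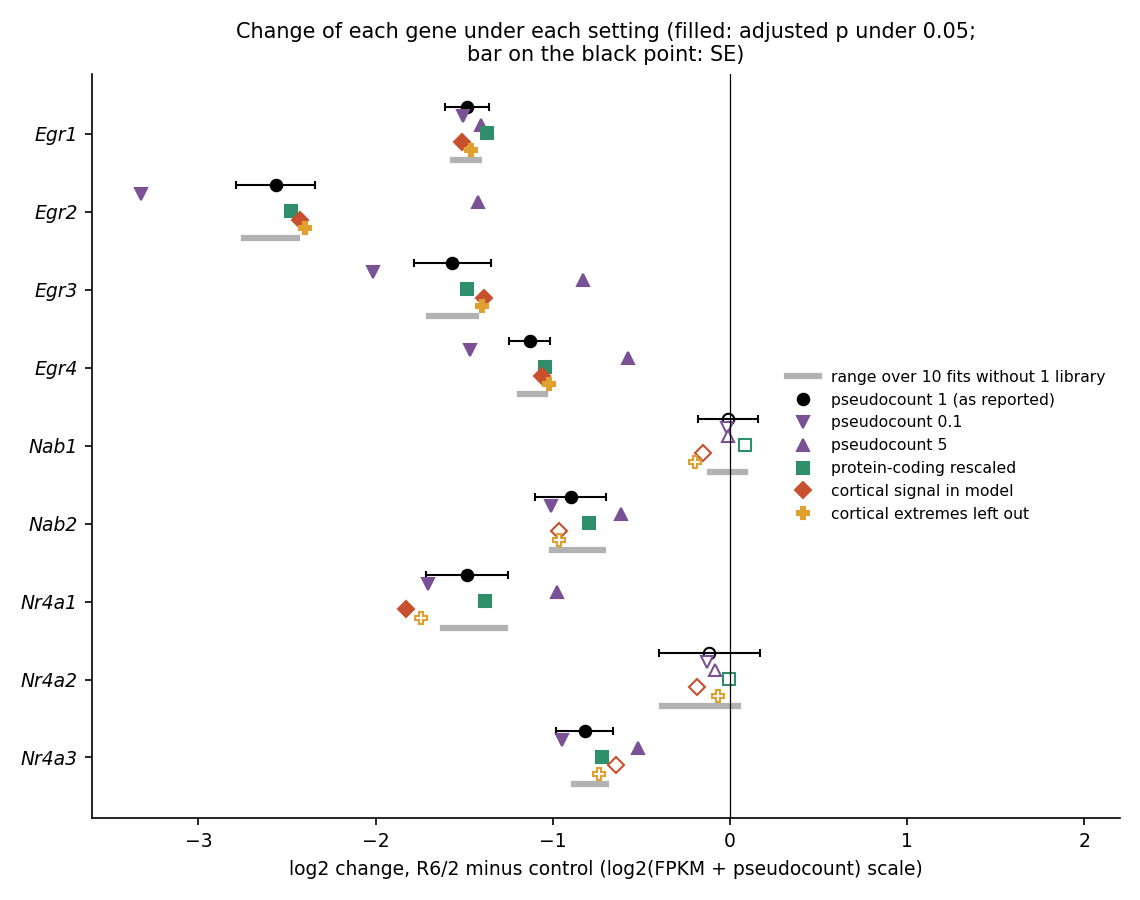
Log2 change, R6/2 minus control, of each of the 9 genes under 6 settings, with the SE on the black point and the range over the 10 fits that each leave out 1 library in grey. Filled symbols passed at a limma adjusted p of 0.05. The 4 Egr genes are filled in every setting shown, the changes of Egr2, Egr3 and Egr4 move most with the pseudocount, and Nab2 and Nr4a3 lose their call in both settings that address the cortical signal.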

How the data were processed

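RNA sequencing of striatum from 5 control and 5 R6/2 libraries was deposited as 1 table of FPKM values made by the authors, with 1 column per library. The submitters' processing notes list GRCm38 and the programs STAR 2.4.0, Cufflinks and Cuffdiff, without saying which did what. Annotation release, strandedness and library scaling are not stated there. Depth is unknown, so no counting interval is given. Each column name was found in 1 sample's description. Symbols, positions and exons came from GENCODE M21 (GRCm38), matched by stable Ensembl ID for 47220 of 47632 rows, and start-site windows from RefSeq (GRCm38.p6).

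The 15905 genes averaging 1 FPKM or more were fitted in limma 3.58.1 (R 4.3.3) using a mean-variance trend on log2(FPKM + 1) over all 10 libraries, with Benjamini-Hochberg adjustment over all genes tested and a threshold of 0.05. The fit was tested on simulated data. Differences between pairs of genes were tested with exact permutation tests in scipy 1.17.1. Genes named are all 9 members, the 3 with the smallest p in the early response list and in the list of inducers and partners, the tested reported targets, and the 3 most alike to each of Egr1, Egr2 and Nr4a1. The other genes of these lists that the text names were chosen after their values were seen. The members and lists were chosen with earlier results of these data known. Alternatives changed the pseudocount, filter, variance model, scaling, covariates and libraries. Same-numbered libraries of the groups did not deviate together, so replicate numbers were not used as pairs. Results for some genes of these lists are not reported here.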

Additional observations from a re-analysis of the deposited data

Results flagged for a closer look

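Among the 29 genes named by rule, each tested in both groups (58 tests), 1 library stood apart from its group. Lynx1 was at 30.9 FPKM in control 5, where the other controls lay between 39.9 and 42.8 FPKM, a gap of 0.757 of the group's range. By chance about 1 in 20 groups is marked in this way. The value of 43.6 FPKM for Nr4a2 in R6/2 1 did not reach this limit.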

How the results depend on the processing

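Over the 21 alternatives planned and added, Egr1, Egr2, Egr3 and Egr4 kept their direction and passed wherever they were tested (not with a minimum mean of 5 FPKM for Egr3 and Egr4). The count of the 9 genes that fell was 7 in each fit without 1 library and 4 without the cortical extremes. Without those extremes (3 against 3) 417 genes of all tested were lower and 87 higher, 7 early response genes were lower, 3 inducers or partners were lower and 0 higher, and 1 reported target was lower and 0 higher. With the cortical covariate 527 genes were lower and 121 higher, 3 inducers or partners were lower and 0 higher, and 2 reported targets were lower and 0 higher. The cause was not tested. Fits without 1 library gave 1144 to 1493 lower and 532 to 871 higher genes, 11 to 14 early response genes lower, 9 to 11 inducers or partners lower and 0 to 2 higher, 5 reported targets lower and 0 to 1 higher, and 4 to 7 called pair differences. Of 10 pair differences 6 passed, and 3 with a pseudocount of 0.1 FPKM. Inducers or partners that rose numbered 1 without the filter, without the trend and with array weights. Rescaling protein-coding genes to 1 total gave 1133 lower and 1520 higher genes (42.7% of calls lower, against 64.6% as reported) and a median of 0.09 over all genes. Quantile normalization gave 53.5%.

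The replicate numbers are shared by the groups, but the correlation of same-numbered libraries' deviations ran from -0.0528 to 0.0495, and 1 of the 5 numbers matched best with itself. With the replicate block 975 genes were lower and 370 higher, 1 inducer or partner rose, and Nr4a3 had an adjusted p of 0.0535 (limma).

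Genes near 0 changed sign. Nab1 was at 0.0077 after quantile normalization and 0.0867 after rescaling, and ran from -0.11 to 0.0873 over the fits without 1 library. Nr4a2 was at 0.0178 with array weights and ran from -0.386 to 0.0452 over those fits. Syn2 was at -0.0462 with the covariate and -0.039 without the cortical extremes. Depth is unknown, so the counting error of the lowest values, such as Egr2 in R6/2, could not be given.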
